A study of Mus musculus with 2 samples.

Results

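The 10 genes described here, Lhx2, Hand2, Tcf21, Gata4, Foxf1, Mef2c, Nr2f2, Wt1, Dach1 and Ets1, encode transcription factors of the hepatic stellate cell (HSC) lineage, and all 10 were present among the 31054 features counted. The set is a list of gene names, with no threshold on a measured value. Single-cell RNA was measured in HSC preparations of male C57BL/6 mice after 4 weeks of carbon tetrachloride (CCl4), a hepatotoxin that causes liver fibrosis, with 1 library per genotype. The control genotype, p16-LRTD, carries p16-CreERT2 and a R26-CAG-LSL-RSR-tdTomato-2A-DTR allele, in which the red reporter and the diphtheria toxin receptor need both Cre and Dre to be switched on. The p16-Alb-LRTD genotype adds Alb-DreERT2, driven by the hepatocyte promoter of albumin, so that hepatocytes with high p16 expression are killed by the toxin. Both genotypes received CCl4, tamoxifen and diphtheria toxin, so the control differs in the Dre allele and not in the agents given. The ages of the mice and the number pooled in a library were not given in the sources used here, and the study names possible leaky expression of the receptor in mice that carry the Dre allele as a limit of the model.

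Stellate cells lie between hepatocytes and sinusoidal endothelium, store vitamin A and turn into collagen-producing myofibroblasts after injury. They descend from mesoderm of the septum transversum and the mesothelium, and several of the factors here are known from that origin. Wt1 marks mesothelium, Hand2, Tcf21, Foxf1 and Gata4 act in the development of visceral mesenchyme, and mice that lack Lhx2 form fibrotic livers. Mef2c, Nr2f2 and Ets1 also act in endothelium, and Gata4 is known as a factor of the sinusoidal type.

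Cells were assigned to classes by the summed UMIs (unique molecular identifiers, 1 per captured transcript) of a few marker genes. The stellate gate asked for at least 15 UMIs of Lrat, Ecm1, Hgf and Reln per 10000, the endothelial gate for at least 8 of Kdr, Stab2 and Ptprb, and the Kupffer gate (resident liver macrophages) for at least 8 of Clec4f, Cd5l, Vsig4 and Csf1r. Values for a pair of libraries are given with p16-LRTD first. Quality filters kept 9004 of 11149 and 7416 of 8806 barcodes. The stellate class held 7852 and 6621 cells, the endothelial class 430 and 283 and the Kupffer class 283 and 178, and the 245 and 221 barcodes that passed more than 1 gate were left out. The summed level of 9 stellate genes outside the gates was 28786 and 31009 CPM (UMIs per 1000000 UMIs of the class and library) in stellate cells, at most 569.5 in endothelial and at most 385.9 in Kupffer cells. In turn, 7 other endothelial genes were at 7318 and 5952 CPM in endothelial and 88.6 and 61.2 CPM in stellate cells, and 7 other Kupffer genes at 11584 and 13810 CPM in Kupffer and 184.7 and 200.6 CPM in stellate cells. The 7 endothelial genes were at 450.8 and 667.1 CPM in Kupffer cells, and the 7 Kupffer genes at 237.1 and 262.6 CPM in endothelial cells. Each list was thus highest in its own class. Cells under 2 UMIs per 10000 in each of the other gates were 7784 and 6593 stellate, 201 and 77 endothelial and 107 and 74 Kupffer cells. The stellate sums rested on 142651137 and 125115995 UMIs, the endothelial sums on 6154423 and 3983226 and the Kupffer sums on 5945102 and 4473285. The libraries shared 95 barcode sequences, 18 of them among the kept cells. Each gene is compared only with itself, since counting at the 3′ end captures genes unequally. A single library per genotype allows no test. Intervals are 95% and cover counting error only, not the spread between mice.

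Lhx2, Hand2, Tcf21, Foxf1 and Dach1 formed the group that was high in stellate cells alone of the 3 classes. Lhx2, a LIM homeodomain factor on chromosome 2 (38339281 to 38369733, plus strand, GRCm38), stood at 405.4 CPM (402.1 to 408.7) and 355.3 CPM (352.0 to 358.7) in stellate cells. In endothelial cells its level was 10.6 and 4.52 CPM, and in Kupffer cells 4.71 and 3.80 CPM. Dach1, a nuclear cofactor known from eye and muscle development on chromosome 14 (97786853 to 98169765, minus strand), had 348.7 and 333.8 CPM in stellate cells and between 2.44 and 4.04 CPM in the other classes. Outside the stellate class both genes were at 2.61% or less of their stellate level.

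Tcf21, a basic helix-loop-helix factor on chromosome 10 (22817281 to 22820174, minus strand), had 590.7 and 667.3 CPM in stellate cells against 7.15 to 9.79 CPM in endothelial and Kupffer cells. Foxf1, a forkhead factor that answers to hedgehog signals in gut mesenchyme, lies on chromosome 8 (121084386 to 121088144, plus strand) and had 177.3 and 171.9 CPM in stellate cells against 1.26 to 2.46 CPM elsewhere. Hand2, also a basic helix-loop-helix factor, on chromosome 8 (57320983 to 57324633, plus strand), had 299.0 and 554.1 CPM in stellate cells and 3.70 to 9.42 CPM elsewhere. For Tcf21, Foxf1 and Dach1 the intervals of endothelial and Kupffer cells overlapped in both libraries, so no order between those classes could be read.

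The low counts of this group outside stellate cells were at the level that other stellate genes had there. The 9 stellate genes that served as the check reached 1.16% to 5.24% of their stellate level in endothelial cells of p16-LRTD and 0.916% to 5.60% in p16-Alb-LRTD. In Kupffer cells the same genes reached 0.583% to 3.67% and 0.684% to 2.09%. Hand2 lay inside these ranges, with 3.15% and 1.45% in endothelial and 1.24% and 1.45% in Kupffer cells. In p16-LRTD endothelial cells, the fullest barcode held 18 of 58 UMIs of Hand2, 10 of 59 of Tcf21 and 19 of 65 of Lhx2. For Foxf1 and Dach1 the most in 1 barcode was 1 of 14 and 2 of 15. Lhx2, Tcf21, Foxf1 and Dach1 were inside or below the range in every class and library. Counts at this level are called background here, and their source was not tested.

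Gata4, Mef2c, Nr2f2 and Ets1 formed a group shared by stellate and endothelial cells. Gata4, a zinc finger factor on chromosome 14 (63198922 to 63271692, minus strand), had 237.0 and 212.4 CPM in stellate cells and 508.9 and 584.2 CPM in endothelial cells, which is 215% and 275% of the stellate level. Mef2c, a MADS box factor of muscle and endothelium on chromosome 13 (83504034 to 83667080, plus strand), had 150.8 and 102.8 CPM against 529.2 and 449.6 CPM. Ets1, on chromosome 9 (32636221 to 32757820, plus strand) and the founding member of the ETS family, had 352.2 and 411.9 CPM against 1108 and 1128 CPM. These 3 genes were higher in endothelial cells in both libraries, with intervals that did not overlap.

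Nr2f2, the venous and lymphatic nuclear receptor COUP-TFII on chromosome 7 (70351944 to 70366735, minus strand), had nearly the same level in both classes. It stood at 924.8 CPM (919.9 to 929.8) in stellate and 923.7 CPM (899.9 to 948.1) in endothelial cells of p16-LRTD. In p16-Alb-LRTD the levels were 887.4 CPM (882.2 to 892.6) and 885.7 CPM (856.7 to 915.4). The endothelial level was 99.9% and 99.8% of the stellate one, and the intervals overlapped in each library.

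Wt1, a zinc finger factor of mesothelium and podocytes on chromosome 2 (105126529 to 105173616, plus strand), was carried by few cells. Its stellate level was 43.7 CPM (42.6 to 44.8) and 43.5 CPM (42.3 to 44.7). In p16-LRTD it reached 11.9% of that level in endothelial and 7.31% in Kupffer cells, above the range of the 9 stellate genes. These counts came from few barcodes, since 8 of 430 endothelial cells held the 32 UMIs, with 14 in 1 cell, and 3 of 283 Kupffer cells held 19 UMIs, with 17 in 1 cell. In p16-Alb-LRTD there was 1 endothelial UMI and there were 3 Kupffer UMIs. Whether such single barcodes hold more than 1 cell was not tested.

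**Figure D1:**
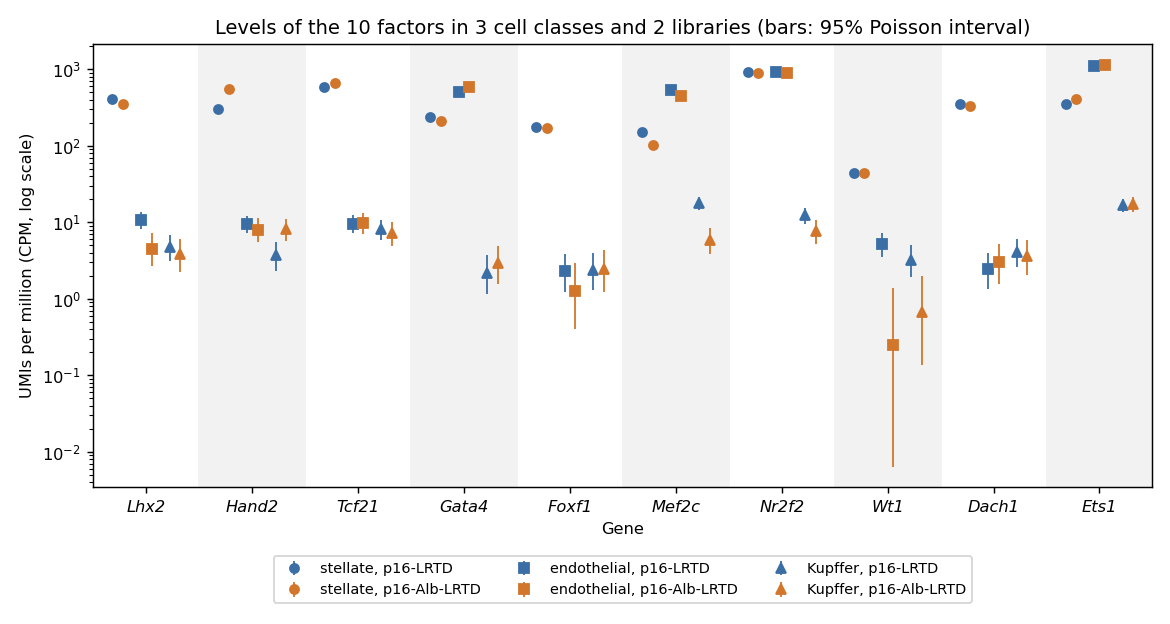
Level of each factor in CPM (log axis) in stellate (circles), endothelial (squares) and Kupffer cells (triangles) of the p16-LRTD (blue) and p16-Alb-LRTD (orange) libraries, with 95% Poisson intervals. Lhx2, Hand2, Tcf21, Foxf1 and Dach1 lie above 100 CPM only in stellate cells, Gata4, Mef2c, Nr2f2 and Ets1 in stellate and endothelial cells, and no factor passes 17.7 CPM in Kupffer cells.

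Kupffer cells carried none of the 10 factors at a level near that of stellate cells. Gata4 was at 2.19 and 2.91 CPM and Nr2f2 at 12.3 and 7.60 CPM, within the range of the 9 stellate genes at 0.857% to 1.37% of their stellate level. Mef2c and Ets1 stood above that range. The 9 genes were low in endothelial cells, where Mef2c was at 351% and 437% of its stellate level. Ets1 was at 314% and 274% there. The range therefore does not cover stray endothelial RNA, whose part in these counts was not tested. In Kupffer cells Mef2c had 17.7 CPM (14.4 to 21.4) and 5.81 CPM (3.80 to 8.52), or 11.7% and 5.65% of the stellate level. Ets1 had 16.7 and 17.2 CPM, or 4.73% and 4.18%. The UMIs of Mef2c lay in 43 of 283 and 15 of 178 Kupffer cells and those of Ets1 in 75 and 51.

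The same grouping showed in single cells. To set depths equal, each cell was thinned to 5000 UMIs, which left out at most 16 cells of a class and library. Of p16-LRTD stellate cells, 97.3% held a UMI of Nr2f2, 89.3% of Tcf21, 79.3% of Lhx2, 79.2% of Ets1, 72.1% of Hand2, 68.2% of Dach1, 63.7% of Gata4, 56.6% of Foxf1, 41.4% of Mef2c and 8.13% of Wt1. Without thinning, at a median depth of 17024.5 UMIs, 9 of these shares lay between 72.9% and 99.9%, and Wt1 was at 13.3%. In p16-LRTD endothelial cells, with a median depth of 11781 UMIs, the shares after thinning were 96.4% for Ets1, 93.1% for Nr2f2, 89.5% for Mef2c and 85.6% for Gata4, and at most 4.55% for the other factors. In Kupffer cells, whose median depth was 19514 UMIs, no share passed 10.1%.

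Counted together, a thinned stellate cell held UMIs of 7 of the 10 factors in the median in both libraries, with quartiles of 6 and 7. The mean was 6.55 in p16-LRTD and 6.59 in p16-Alb-LRTD, and 93.9% and 94.8% of stellate cells held 5 or more. Endothelial cells held 4 in the median in both libraries, and 7.42% of them held 5 or more in each. Kupffer cells held 0 in the median, and 71.2% and 75.1% of them had none. The number of factors found per cell therefore differed by class and hardly by genotype.

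Between the libraries, most factors moved little in stellate cells. The comparison asks whether the lineage factors of HSCs differ when p16-high hepatocytes are eliminated during injury. A gene was counted as past the fold when its log2 ratio, p16-Alb-LRTD over p16-LRTD, was at least 0.5 in size and its mean level at least 5 CPM. Of 10 members, 1 was higher past this fold (Hand2) and 1 lower (Mef2c), against 8.17% of the 10179 genes at that level, 3.89% higher and 4.28% lower. The median log2 ratio of the members was -0.05, with -0.05 over all genes. With 1 library a genotype, these are differences between 2 preparations, and fewer transcripts per cell and a different mix of cells cannot be told apart in the sums.

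Other markers in the stellate class moved as follows. Division genes were lower in p16-Alb-LRTD, with 7 of 8 at 5 CPM, all 7 past the fold, a median log2 ratio of -2.88 and a summed level of 206.5 and 40.6 CPM. The largest of these ratios were those of Ube2c (-4.34), Cenpf (-3.63), Top2a (-2.95) and Birc5 (-2.88). Portal fibroblast genes were at 211.6 and 209.3 CPM in sum, with 5 of 9 at 5 CPM, among which Cd34 (-1.22) and Dpt (-1.02) were lower and Gas1 (0.46) and Fbln1 (-0.32) stayed below the fold. Hepatocyte genes were at 92.0 and 96.3 CPM, with 2 of 10 at 5 CPM, Alb lower past the fold (-0.80) and Trf at 0.32. The 6 lymphocyte genes summed to 0.456 and 1.24 CPM. Of the 9 stellate genes outside the gates, Pdgfrb was lower past the fold (-0.70), and Pth1r (-0.48), Dcn (0.27) and Rgs5 (-0.26) followed. Of the 7 endothelial genes 3 reached 5 CPM, Clec4g (-0.93), Egfl7 (-0.37) and Gpr182 (-0.33), and of the 7 Kupffer genes also 3, C1qb (-0.51), C1qa (-0.34) and Slc40a1 (0.16). The part of these markers in the ratios of the 10 factors was not tested. Leaving out every cell with a UMI of Mki67, Top2a or Cdk1 removed 22.4% and 24.6% of stellate cells, more in the library with the lower division genes, and gave 0.88 for Hand2 and -0.63 for Mef2c.

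**Figure D2:**
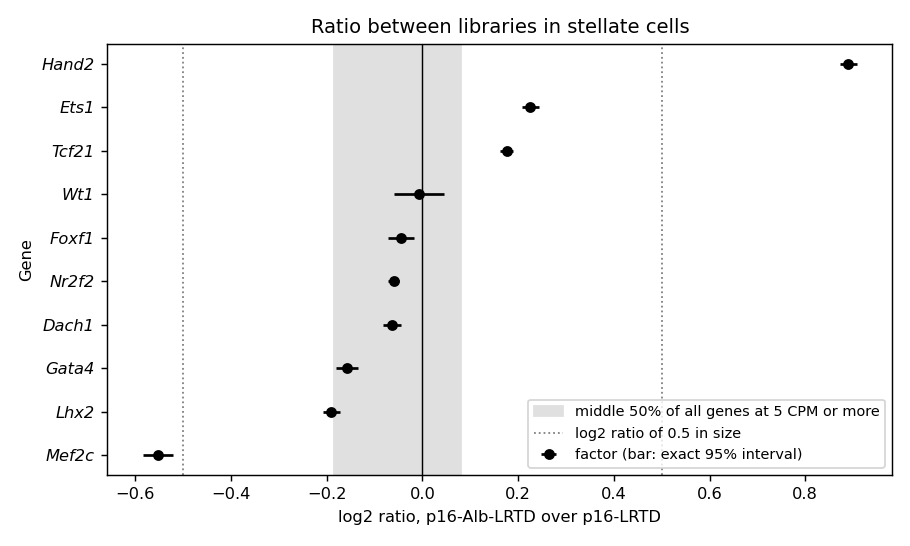
The log2 ratio of each factor between the libraries in stellate cells (p16-Alb-LRTD over p16-LRTD), with exact 95% intervals, beside the middle 50% of all genes (grey, -0.18 to 0.08). Hand2 at 0.89 and Mef2c at -0.55 lie past the dotted lines at 0.5, and the other 8 factors lie between -0.19 and 0.23.

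Hand2 was the factor with the largest difference. Its level was 299.0 CPM (296.1 to 301.8) in the control library and 554.1 CPM (550.0 to 558.3) in the p16-Alb-LRTD library. The log2 ratio was 0.89 (0.87 to 0.91), or 1.85-fold, and 98.7% of genes had a lower ratio. After thinning to 5000 UMIs, the share of stellate cells with a Hand2 UMI was 72.1% (71.1 to 73.1) and 88.9% (88.1 to 89.6). The mean count was 1.48 and 2.81 UMIs per thinned cell. Both the share of cells with a UMI and the count per cell were thus higher in p16-Alb-LRTD.

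The bases before the start of Hand2 are printed because it is the factor with the largest ratio, and those of Mef2c because it is the other one past the fold. The 250 bases before each annotated start come from a set of RefSeq promoters (GRCm38.p6). The set used here held entries for 6 of the 10 members. Capitals mark matches on either strand to CAGCTG and CATCTG (E-boxes, bound by helix-loop-helix factors), AGATAA (bound by GATA factors), TATAAA (the TATA box), GGGCGG (the GC box) and CCGGAAG (bound by ETS factors), and no matches overlapped in the sequences shown. The Hand2 window lies at chr8:57320733-57320982 on the plus strand, 5′ to 3′.
Hand2: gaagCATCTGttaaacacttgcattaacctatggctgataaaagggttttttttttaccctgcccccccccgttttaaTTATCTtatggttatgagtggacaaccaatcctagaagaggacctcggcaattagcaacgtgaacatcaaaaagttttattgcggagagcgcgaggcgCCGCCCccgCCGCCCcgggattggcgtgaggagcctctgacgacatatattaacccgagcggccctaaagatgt
It held 1 CATCTG match 246 bases before the start, 1 AGATAA match at 172 and 2 GGGCGG matches at 74 and 65. Of all 32851 promoters of this length in the set, 14.4% held CATCTG, 9.99% AGATAA and 32.7% GGGCGG. A match says that the letters are there, not that a factor binds.

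The libraries also differed in the genes of the early response to tissue dissociation, and their part in the Hand2 ratio was not tested. All 12 genes of that list (Fos, Jun, Egr1, Hspa1a and others) were higher in p16-Alb-LRTD stellate cells, 10 of them past the fold, with a median log2 ratio of 0.73 and a summed level of 6324 and 9740 CPM. Hspa1b (1.72), Hsph1 (1.63), Dnajb1 (0.93) and Hspa1a (0.79) had the largest ratios. The 12 genes gave a median of 30 UMIs in a thinned p16-LRTD cell and 49 in a p16-Alb-LRTD cell. Cells were grouped by these UMIs and Hand2 was compared within each group. In cells with 0 to 9 stress UMIs, the mean Hand2 count was 1.19 (971 cells) and 2.33 (289 cells) per thinned cell, a log2 ratio of 0.97 (0.83 to 1.11). In cells with 60 or more it was 1.78 (420 cells) and 3.12 (2091 cells), a log2 ratio of 0.81 (0.70 to 0.92). In the 4 groups between these it lay between 0.69 and 0.81, against 0.89 over all stellate cells. In both libraries the mean Hand2 count was higher in the last group than in the first.

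**Figure D3:**
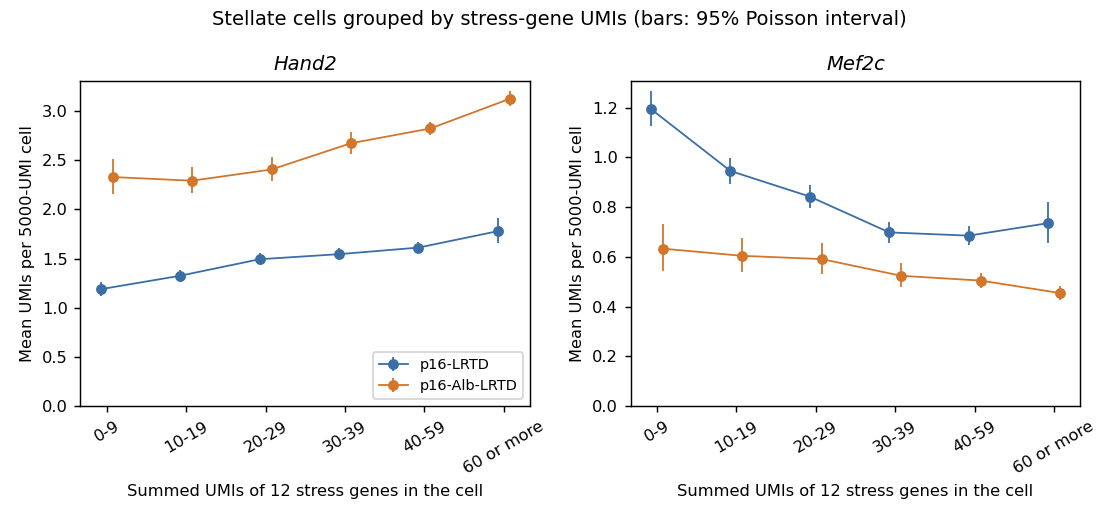
Mean UMIs of Hand2 (left) and Mef2c (right) per stellate cell thinned to 5000 UMIs, for cells grouped by the summed UMIs of 12 dissociation stress genes, in p16-LRTD (blue) and p16-Alb-LRTD (orange), with 95% Poisson intervals. Between the first and the last group Hand2 goes from 1.19 to 1.78 and from 2.33 to 3.12, and the libraries stay apart in all 6 groups for both genes.

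Stellate cells were also split into clusters built without the 10 factors, so that a cluster's level of a factor was not set by its own count. The 5 clusters with at least 100 cells per library are called by number and leading genes, cluster 0 by Galnt14 and Egfem1, cluster 1 by Grid1 and Inmt, cluster 2 by Notch3 and Clstn2, cluster 3 by Fbn2 and Svep1, and cluster 4 by Qpct and Spon2. Of these 5, cluster 3 had the highest level of Col1a1, at 6558 and 1951 CPM. Genes used in clustering move with the clusters by construction, and what follows is a description.

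Hand2 was higher in p16-Alb-LRTD in each of the 5 clusters. The log2 ratio was 0.84 in cluster 0, 0.92 in cluster 1, 0.96 in cluster 2, 0.61 in cluster 3 and 0.79 in cluster 4. Of these 5, its lowest level in p16-LRTD was in cluster 2 (239.9 CPM) and its highest in cluster 4 (393.3 CPM), and cluster 4 was highest in p16-Alb-LRTD too (682.3 CPM). In cluster 6, 205 and 21 dividing cells led by Top2a, the levels were 194.1 and 195.8 CPM, a log2 ratio of 0.01 (-0.28 to 0.29). In the smaller clusters 5, 7 and 8, with 2 to 157 cells per library, the ratio was 0.46, 0.77 and 0.91, the last with an interval on both sides of 0. The summed stress list had a log2 ratio of 0.52 to 0.63 in clusters 0 to 4, and of 0.56, -0.38, 0.89 and -0.10 in clusters 5, 6, 7 and 8.

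Among the 5 large clusters, the Mef2c ratio was past the fold in cluster 2 alone. Its stellate level of 150.8 CPM (148.8 to 152.8) against 102.8 CPM (101.1 to 104.6) gave a log2 ratio of -0.55 (-0.58 to -0.52), and 3.50% of genes had a lower one. In cluster 2, whose leading gene Notch3 is a receptor of pericytes and vascular smooth muscle, Mef2c had 415.4 and 174.7 CPM, a log2 ratio of -1.25 (-1.31 to -1.18). In cluster 0 the ratio was -0.23, and in clusters 1, 3 and 4 it lay between -0.03 and 0.09. In the small clusters it was -0.21 (-0.50 to 0.08) in cluster 5, 0.56 (0.20 to 0.90) in cluster 6 and -0.70 (-1.26 to -0.14) in cluster 7. In cluster 8 it was 4.24 (2.98 to 5.71), from 7 and 23 UMIs among 13 and 2 cells. Cluster 2 held 21.7% of the control stellate cells and 12.5% of those of p16-Alb-LRTD.

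Without cluster 2, the log2 ratio of Mef2c in stellate cells was -0.11, below the fold. With the clusters of both libraries set to the same shares it was -0.51. The share of thinned stellate cells with a Mef2c UMI was 41.4% and 36.5%, and the share with 3 or more was 8.61% and 2.92%. Grouped by stress genes, the Mef2c ratio lay between -0.92 and -0.41 in the 6 groups.

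Mef2c has 3 starts in the set of RefSeq promoters used, and 3′ counts do not tell which one a transcript used. The windows lie on the plus strand at chr13:83503784-83504033, chr13:83523406-83523655 and chr13:83573357-83573606.
Mef2c start 1: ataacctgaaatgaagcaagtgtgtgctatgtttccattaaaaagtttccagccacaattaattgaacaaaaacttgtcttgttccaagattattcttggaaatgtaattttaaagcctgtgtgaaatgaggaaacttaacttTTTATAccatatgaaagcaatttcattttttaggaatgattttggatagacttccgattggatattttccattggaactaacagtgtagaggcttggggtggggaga
Mef2c start 2: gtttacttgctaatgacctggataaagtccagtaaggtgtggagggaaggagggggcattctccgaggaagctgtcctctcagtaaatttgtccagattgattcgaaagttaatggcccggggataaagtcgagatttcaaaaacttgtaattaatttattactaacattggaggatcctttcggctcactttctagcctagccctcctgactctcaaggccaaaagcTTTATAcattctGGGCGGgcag
Mef2c start 3: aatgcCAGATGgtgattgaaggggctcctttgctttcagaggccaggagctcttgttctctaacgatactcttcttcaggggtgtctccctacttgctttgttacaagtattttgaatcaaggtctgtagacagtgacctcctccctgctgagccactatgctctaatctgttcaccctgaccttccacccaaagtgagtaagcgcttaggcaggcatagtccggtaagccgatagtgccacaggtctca
The first held 33.6% G and C, the second 44.8% and the third 49.6%, with a median of 52.4% over all promoters. A TATAAA match stood 107 bases before the first start and 22 bases before the second, both on the strand opposite to the gene. GGGCGG stood 10 bases before the second start, and CATCTG stood 245 bases before the third. Of all promoters, 12.4% held TATAAA. No CAGCTG or CCGGAAG match was found in any of the 9 windows of the members, against 13.0% and 6.91% of all promoters.

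**Figure D4:**
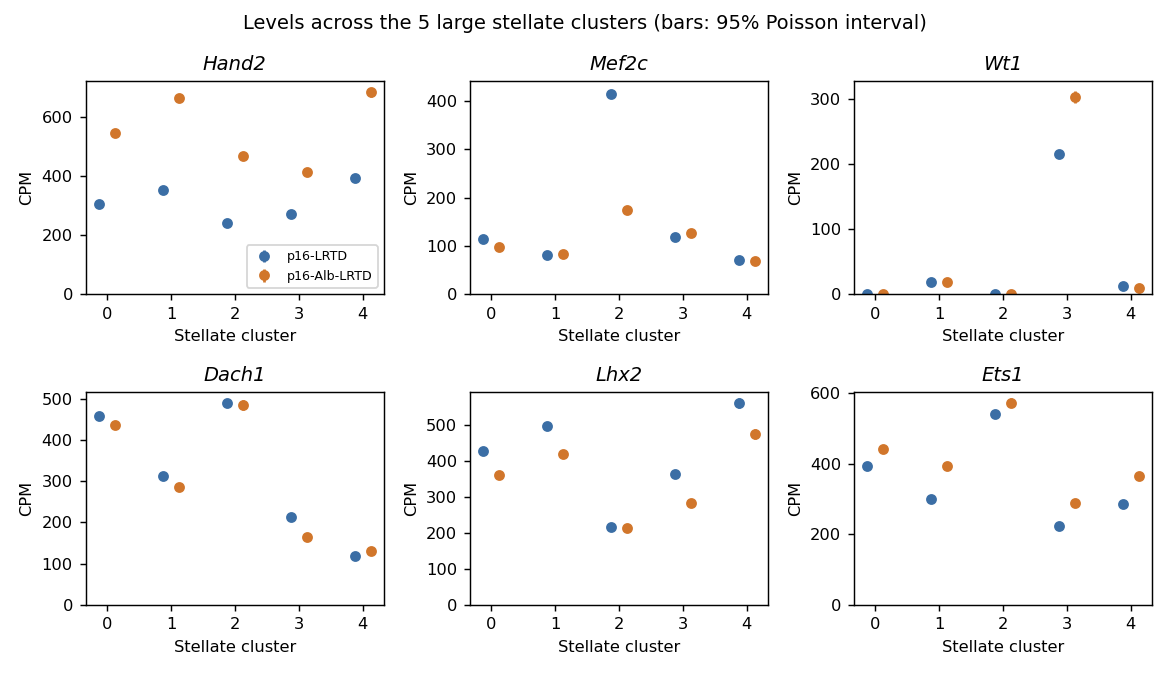
Levels of 6 factors in CPM in the 5 large stellate clusters of p16-LRTD (blue) and p16-Alb-LRTD (orange), with 95% Poisson intervals that are mostly smaller than the points. Hand2 is higher in p16-Alb-LRTD in all 5 clusters, the difference in Mef2c is largest in cluster 2 (415.4 and 174.7 CPM), and Wt1 stands above 20 CPM in cluster 3 alone.

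Among the 5 large clusters Wt1 was nearly confined to cluster 3, with 214.6 and 302.7 CPM there and at most 18.1 CPM in clusters 0, 1, 2 and 4. It was also found in cluster 8, 13 and 2 cells led by Saa3 and Cxcl13, with 136 and 3 UMIs of Wt1, or 430.4 and 54.7 CPM. In p16-LRTD that level was above the one in cluster 3. Within cluster 3 the log2 ratio was 0.50 (0.44 to 0.55), while over all stellate cells it was -0.01 (-0.06 to 0.05). Cluster 3 held 14.3% and 11.9% of stellate cells, and with equal cluster shares in both libraries the ratio was 0.39. The summed level of 10 mesothelial markers (Msln, Upk3b, Krt19 and others) was 4.37 and 1.54 CPM over all stellate cells and 2.36 and 2.65 CPM in cluster 3. In cluster 8 it was 835.4 and 18.2 CPM, from 264 UMIs and 1 UMI, so 42.4% of the list's stellate UMIs in p16-LRTD lay in these 13 cells. Dpt, a portal fibroblast gene, was highest in cluster 3 among the 5 large clusters, at 259.6 and 179.1 CPM.

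The other factors also differed between the 5 large clusters. Dach1 was highest in cluster 2 (488.3 and 484.5 CPM) and lowest in cluster 4 (118.5 and 129.6 CPM), a spread of 4.12-fold and 3.74-fold. Lhx2 had the reverse placing, with 562.3 and 476.1 CPM in cluster 4 and 217.2 and 214.0 CPM in cluster 2. Ets1 was highest in cluster 2 (541.7 and 573.4 CPM) and lowest in cluster 3 (223.3 and 289.9 CPM). Nr2f2 and Tcf21 were the most even, with at most 1.62-fold between the highest and the lowest cluster of a library. Thus cluster 2 was at the same time the highest for Mef2c, Dach1, Ets1 and Nr2f2 and the lowest for Lhx2 in both libraries.

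Lhx2 was lower in p16-Alb-LRTD by a log2 ratio of -0.19 (-0.21 to -0.17) over all stellate cells, and between -0.36 and -0.24 in clusters 0, 1, 3 and 4. In cluster 2 it was -0.02, with an interval on both sides of 0 (-0.09 to 0.05). Ets1 had 0.23 (0.21 to 0.24) and was above 0 in each of the 5 clusters, from 0.08 to 0.39. Tcf21 had 0.18 (0.16 to 0.19), and its largest ratio in the 5 large clusters was 0.50 in cluster 3, where its level was 435.2 and 614.6 CPM. Clusters 6 and 8 are small, with 205 and 21 cells and with 13 and 2 cells, and these intervals do not cover the spread between cells. In these 2 clusters the ratio of Tcf21 was 0.68 (0.51 to 0.85) and 1.47 (0.86 to 2.05). That of Lhx2 was -1.13 (-1.42 to -0.86) and -2.08 (-4.39 to -0.47). The ratio of Ets1 was -0.47 (-0.63 to -0.31) in cluster 5, 0.77 (0.36 to 1.19) in cluster 7 and 1.01 (0.22 to 1.75) in cluster 8. Grouped by stress genes, the Tcf21 ratio turned to -0.23 (-0.34 to -0.12) in cells with 0 to 9 stress UMIs, was 0.12 to 0.18 in the next 4 groups and 0.03 (-0.05 to 0.12) in cells with 60 or more. In the same 6 groups Lhx2 lay between -0.33 and -0.14 and Ets1 between 0.06 and 0.30. None of these passed 0.5 over all stellate cells.

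Gata4 had a log2 ratio of -0.16 (-0.18 to -0.13) and its lowest ratio in the 5 large clusters was -0.38 in cluster 2, with intervals over 0 in clusters 3 and 4. The ratios of Dach1 (-0.06), Nr2f2 (-0.06) and Foxf1 (-0.04) were near the median over all genes (-0.05). In the 5 large clusters Foxf1 went both ways, from -0.31 in cluster 2 to 0.21 in cluster 3, and Nr2f2 did too, with -0.25 in cluster 2 and 0.16 in cluster 1, as did Dach1, with -0.37 (-0.44 to -0.30) in cluster 3 and 0.13 (0.02 to 0.23) in cluster 4. In the small clusters, the ratio of Foxf1 lay between -0.89 and 0.32, each with an interval on both sides of 0, and that of Nr2f2 between -0.55 and 0.48. The ratio of Dach1 there lay between -0.25 and -0.16 in clusters 5, 6 and 7. It was 2.21 (1.16 to 3.23) in cluster 8, from 20 and 16 UMIs among 13 and 2 cells.

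In endothelial cells the 4 shared factors moved little between the libraries. Of 7 members at 5 CPM or more, 1 was past the fold, Lhx2, which was lower, against 26.0% of 9858 genes (8.68% higher and 17.3% lower). Gata4 had 508.9 and 584.2 CPM, a log2 ratio of 0.20 (0.12 to 0.28). Mef2c had -0.24 (-0.32 to -0.15), Nr2f2 -0.06 (-0.12 to 0.00) and Ets1 0.03 (-0.03 to 0.08). The 65 and 18 UMIs of Lhx2 there were within the background range, and 19 of the 65 lay in 1 barcode. The median over all endothelial genes was -0.10 and over the 7 members -0.06. In this class 11 of 12 dissociation stress genes were higher past the fold (median 0.94). All 4 division genes at 5 CPM were lower past it (median -2.13). Of 9 hepatocyte genes at 5 CPM, 4 were higher past it (median 0.50). The part of these markers in the endothelial ratios was not tested.

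In Kupffer cells 5 members reached 5 CPM and 3 were past the fold, Hand2 higher and Mef2c and Nr2f2 lower, against 16.2% of 9514 genes (6.65% higher and 9.53% lower). Hand2 rested on 22 and 36 UMIs, with a ratio of 1.12 (0.32 to 1.96). In endothelial cells it had 58 and 32 UMIs and a ratio of -0.23 (-0.90 to 0.42). Hand2 lay within the background range in both classes and both libraries, and the source of its counts was not tested. Nr2f2 in Kupffer cells, with 73 and 34 UMIs, was in that range as well. Mef2c, above it, had 105 and 26 UMIs and a ratio of -1.60 (-2.28 to -0.97), and its most loaded cells held 10 and 6 UMIs. The summed level of 7 endothelial genes in the Kupffer class was 450.8 and 667.1 CPM, of which Cdh5 made up 361.0 and 530.3 CPM and Pecam1 62.7 and 125.4 CPM. Clec4g, Gpr182, Tek and Egfl7 lay between 0.447 and 2.68 CPM there, and of the gate genes Kdr had 3.36 and 2.24, Ptprb 2.02 and 2.24 and Stab2 106.1 and 136.6 CPM. Lyve1 had 22.7 and 5.81 CPM, a ratio of -1.97 (-2.63 to -1.35). The part of endothelial RNA in the Mef2c counts was not tested. Of 6 division genes at 5 CPM in the Kupffer class, 5 were lower past the fold, with a median of -1.05. Of the 12 dissociation stress genes 7 were higher past it, with a median of 0.68. Their part in the Kupffer ratios was not tested.

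Of 12 paralogs of the 10 factors, 6 reached 5 CPM in stellate cells, none passed the fold, against 8.17% of all genes, and the median log2 ratio was 0.05. Gata6, another GATA factor of mesoderm, had 170.2 and 170.0 CPM. Mef2a and Mef2d, the relatives of Mef2c, had ratios of 0.06 and 0.03. The largest was Ets2, with 66.1 and 83.9 CPM and a ratio of 0.34, and then Nr2f6 with -0.19 and Nr2f1 with 0.13. Hand1 and Foxf2 had 0 UMIs in both libraries, which allows up to 0.0210 and 0.0240 CPM when a count of 0 is taken to allow 3 UMIs, and Lhx9 had 8 and 5 UMIs.

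Of 20 known partners of these factors, 15 reached 5 CPM, 1 was lower past the fold and none higher, near the 8.17% of all genes, with a median of -0.03. That gene was Ldb2, a LIM domain binding protein that joins LIM homeodomain factors into complexes, with 515.6 and 334.0 CPM and a ratio of -0.63. Its relative Ldb1 had 0.08. Hdac5, a deacetylase that represses MEF2 factors, had 28.2 and 38.0 CPM and a ratio of 0.43. Eya4, a partner of Dach proteins, had -0.37, and the LIM-only protein Lmo4 0.23. Tcf4 and Tcf12, which pair with Hand2 and Tcf21, both had -0.02, and Zfpm2, the cofactor of Gata4, had -0.14.

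Among 29 other transcription factors of mesenchyme, 22 reached 5 CPM, 2 were higher and 4 lower past the fold, against 3.89% and 4.28% of all genes, with a median of -0.03. Sox9 had the largest ratio at a low level, 3.15 and 7.55 CPM (1.26). Prrx1, a limb and fibroblast homeobox gene, had 14.4 and 7.80 CPM (-0.88). Snai2, a zinc finger repressor of the epithelial state, had 96.6 and 58.96 CPM (-0.71), and Hlx, a homeobox gene of visceral mesenchyme, 96.1 and 151.0 CPM (0.65). Of 17 factors known from endothelium 5 reached 5 CPM in stellate cells, of which 3 were higher, Klf4 (1.11), Klf2 (0.82) and Maf (0.69), and Fli1 had 0.22. Of 11 Kupffer factors 6 reached it and 2 were higher, Cebpb (0.98) and Irf8 (0.56), and Nr1h3 had -0.37.

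The genes whose level followed each factor most closely over the 10 points of 5 clusters and 2 libraries were found among 6584 genes by Pearson's r of log2(CPM + 1). The points share libraries and the clusters were built from expression, so r is a description. Hand2 was followed by Csrnp1 (0.97), Sgk1 (0.96) and Junb (0.96), of which Junb is in the stress list. Mef2c was followed by Nptn (0.96), Galnt1 (0.95) and Notch3 (0.94), Wt1 by Alcam, Svep1 and Gas6 (each 0.99) and Dach1 by Parp4, Zfp804b and Xkr6 (each 0.99). Lhx2 was followed by Bmyc, Apoc1 and Nfic, Gata4 by Rbm46os, Ppp1r12b and Micu3, Tcf21 by Dnajb11, Pdia4 and Insig2, Foxf1 by Cnn3, Aktip and D630033O11Rik, Nr2f2 by 4921524J17Rik, Tmem5 and Clstn1 and Ets1 by Csnk2a1, Adamts1 and Scaf1, all with r of 0.93 to 0.99.

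Some of the 10 loci overlap other genes. Foxf1 shares its strand with Gm20388, whose stellate level was 268.7 and 314.5 CPM, and reads of the shared part may have been split or dropped, so the Foxf1 level is uncertain. Genes on the other strand overlap Lhx2, Tcf21 and Ets1 and had 0.133 to 5.39 CPM in stellate cells. The annotation also places Hand2os1 over Hand2, Gm27530 over Foxf1, B130024G19Rik over Nr2f2 and Gm16331 over Dach1 on the other strand, and Gm25831 over Dach1 on the same strand, none of which is among the features counted. Whether the counting used strand was not given in the sources used here.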

How the data were processed

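Single-cell RNA was counted in 2 libraries of isolated mouse HSCs, 1 per genotype. The deposited values are the authors' raw counts of UMIs by gene and barcode, made from 10x 3′ v3.1 libraries with Cell Ranger 7.0.1 and mm10, and whether introns were counted is not given in the sources used here. Following the study's methods, barcodes with over 5% mitochondrial counts, under 2000 or over 7000 genes or over 50000 UMIs were left out. No doublet caller was run. Counts were summed per class and library and scaled to CPM. Intervals are exact Poisson for levels, exact conditional for ratios and Clopper-Pearson for shares. These cover counting error only. Depth was 193746596 and 162219167 UMIs, so counting error is small in stellate cells and large for low genes in the other classes. Stellate cells were clustered in Seurat 5.3.0 (R 4.3.3) by reciprocal PCA integration on 1995 variable genes without the 10 factors, 30 dimensions and resolution 0.5.

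The 10 factors and all gene lists were chosen with earlier results of these data known. Each factor is named, and of each list the counts past the fold and up to 4 genes with the largest ratios at 5 CPM or more. The value of 1 gene that this rule names is not reported here. Other paralogs and partners, and the grouping by stress UMIs, were chosen after values were seen. Coordinates come from GENCODE vM21 (GRCm38), which matched 30934 of 31054 features by identifier. Alternatives were TMM scaling (edgeR 4.0.16), median-of-ratios scaling, means over cells, other minimum levels, gates, filters and depths, and equal cluster shares.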

Additional observations from a re-analysis of the deposited data

Results flagged for a closer look

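Gata4 had a log2 ratio of -0.16 (-0.18 to -0.13) in stellate cells and of 0.20 (0.12 to 0.28) in endothelial cells, p16-Alb-LRTD over p16-LRTD. It drew attention because the counting intervals lay on opposite sides of 0 in the 2 classes, and it was the only factor of which this held at 5 CPM or more in both. With 1 library per genotype, the difference between the classes was not tested.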

How the results depend on the processing

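No paired analysis was possible because the 2 libraries carry no replicate pairs. In stellate cells 2 of 10 factors were past the fold under 18 of the 19 other settings of cells, scaling and minimum level, and 1 without cluster 2 (Mef2c was then at -0.11) with 0 at a log2 ratio of at least 1. Hand2 lay between 0.84 and 0.94 in all 19, and Mef2c between -0.72 and -0.11. The median over the 10 factors, -0.05 as reported, was -0.0079 with TMM and -0.0058 with median-of-ratios scaling, -0.080 as a mean over cells, -0.083 without cells with a UMI of a division gene, -0.073 with equal cluster shares, -0.023 without cluster 2 and -0.095 without cluster 3, so its sign held under these settings. Leaving out clusters 2, 3 or 6 was chosen after seeing the data. Wt1 ran from -0.10 to 0.39, the latter with equal cluster shares, and 8 of 19 settings gave the other sign. Foxf1 changed sign with median-of-ratios scaling (0.00). The endothelial median, -0.06 as reported, was 0.22 with the barcodes of 2 gates kept and 0.13 with looser gates, over 10 and 6 factors instead of 7. It was also above 0 with TMM (0.018) and median-of-ratios scaling (0.034), as a mean over cells (0.0050) and with narrower limits on UMIs per cell (0.034), so its sign depends on scaling and on the cells taken. The Kupffer median, -0.17 as reported, was -0.97 with the barcodes of 2 gates kept, over 9 factors instead of 5, -0.78 with stricter gates, 0.45 with cells under 2 per 10000 in the other gates and 0.0090 with a lower minimum of genes per cell, so its sign depends on the cells taken. The cause of these moves was not tested. Depth limits the endothelial and Kupffer values of the low factors, which rest on 65 or fewer UMIs for Lhx2, Hand2, Tcf21, Foxf1, Wt1 and Dach1.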
